A study of Homo sapiens with 10 samples.

Results

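The genes described here encode the chaperones, folding enzymes and disposal machinery of the endoplasmic reticulum (ER), together with 2 of the stress sensors and the transcription factor that set their levels. They were listed as 34 gene symbols by function, with earlier results of these data known. Their counts beside all genes therefore describe the list and are not an independent test. Of the 34, 32 had a probe set under their symbol among 17687 genes. HSP90B1 and PDIA5 were not analysed here. Each of the 32 was read by 1 probe set. The data are 10 Clariom S human arrays (Affymetrix) hybridised with RNA of established prostate cancer lines, namely PC3 and CWR22Rv1, both castration-resistant. PC3 cells were kept for 48 h without arginine (-R, 2 arrays) or for 48 h with 200 mg/L arginine (+R, 2 arrays). CWR22Rv1 cells were used in 2 experiments with 1 array per condition. The time course held 0 h (control medium with 200 mg/L arginine for 24 h), 24 h and 48 h without arginine, and the DMKG experiment held -R+DMKG, -R and +R, each for 48 h. DMKG is dimethyl α-ketoglutarate, an α-ketoglutarate that crosses membranes, which the labels give at 5 mM and the methods in a micromolar unit. All media held dialyzed serum, and the labels give no genetic change for any group. The 48 h array of the time course therefore differed from its control in time in medium as well as in arginine.

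The ER folds and modifies secreted and membrane proteins. The HSP70 chaperone BiP binds unfolded chains with the help of J proteins, calnexin and calreticulin bind glycoproteins, and protein disulfide isomerases form and rearrange disulfide bonds, while chains that fail are recognised by EDEM proteins and OS9 and sent through a channel of SEL1L, SYVN1 and derlins to the proteasome. When unfolded chains accumulate, the sensors IRE1 (ERN1), ATF6 and PERK act: IRE1 splices XBP1 mRNA, ATF6 is cut and enters the nucleus, and both products switch on chaperone genes through ER stress response elements, whereas PERK slows translation. Lack of an amino acid acts on translation through another kinase, GCN2, which phosphorylates the same initiation factor as PERK.

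The values are log2 expression as deposited, so that a difference of 1 is a doubling. Each starved array was set against the control of its own experiment in 1 linear model in limma over all arrays, and a gene was called at an adjusted p under 0.05 over all genes. The labels do not say whether the PC3 replicates came from separate cultures, so the spread between them may be technical. All p-values rest on 1 pooled spread per gene, from the PC3 replicates and from the disagreement of the 2 CWR22Rv1 experiments at 48 h. A wide gap between those experiments thus widens the standard errors in PC3 cells too, and PC3 replicates enter those of CWR22Rv1 cells. Because RNA was pooled from all cells of a dish, fewer cells expressing a gene and less of its RNA in each cell cannot be told apart. The DMKG experiment stood apart in 1 respect: 2341 of 17687 genes (13.24%), EDEM1 and SEC61B among them, had identical values on its 3 arrays, 3821 (21.6%) were identical between -R and +R, and 4650 (26.3%) between -R+DMKG and -R. Within the time course or the PC3 arrays at most 22 genes were identical between any 2 arrays. Neither the labels nor the methods give a source for these ties. After quantile normalization VIM, CAV1, CD44 and ANXA1 were higher on every PC3 array than on any CWR22Rv1 array, KLK2 and TMPRSS2 were lower on every PC3 array, and KLK3 overlapped.

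The letters that XBP1 and ATF6 recognise were looked for in the RefSeq promoter table (GRCh38.p14), which holds 250 bases before and 50 after each start and lists 31 of the 34 genes. On either strand, the ER stress response element (ERSE, the letters CCAAT, then 9 bases of any kind, then CCACG) was found in 8 of 31 (25.8%), namely HSPA5, HSP90B1, CRELD2, CALR, CANX, PDIA6, ERO1B and XBP1, against 25 of 27305 genes in the table (0.0916%). ERSE-II (ATTGG, 1 base of any kind, CCACG) was found in HYOU1, SDF2L1 and HERPUD1 (9.68%, against 0.0696% of all genes) and the unfolded protein response element TGACGTGG in HYOU1 and DNAJC10 (6.45%, against 0.927%). The composite C/EBP-ATF letters (TGATG, 1 base of any kind, then AAC or AAT), of the kind that ATF4 and its partners bind, were found in HERPUD1 (3.23%, against 2.18%). A match describes letters only. The 250 bases before the start are shown for the 5 genes with a match, 1 start in the table and the smallest p for the PC3 minus CWR22Rv1 response, so that the letters can be read beside the responses below. They include 2 that passed that test (HERPUD1, HSPA5). Capitals mark the matches, which on the reverse strand read as CGTGG and ATTGG or CCAAT. In HERPUD1 the first run of capitals is the C/EBP-ATF match and the second is ERSE-II. In HYOU1 the first run is TGACGTGG overlapped by an ERSE-II, and the second is another ERSE-II.
HERPUD1, chr16:56931892-56932141, plus strand: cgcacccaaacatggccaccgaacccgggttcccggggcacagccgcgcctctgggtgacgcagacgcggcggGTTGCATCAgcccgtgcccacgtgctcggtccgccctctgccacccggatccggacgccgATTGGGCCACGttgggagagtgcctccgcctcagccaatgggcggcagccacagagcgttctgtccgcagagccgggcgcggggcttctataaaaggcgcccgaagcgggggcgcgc
HSPA5, chr9:125241344-125241593, minus strand: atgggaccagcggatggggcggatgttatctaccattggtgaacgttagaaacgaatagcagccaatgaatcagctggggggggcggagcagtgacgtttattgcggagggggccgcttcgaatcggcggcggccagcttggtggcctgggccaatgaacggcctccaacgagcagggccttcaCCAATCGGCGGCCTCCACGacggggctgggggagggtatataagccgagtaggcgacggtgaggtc
CALR, chr19:12938359-12938608, plus strand: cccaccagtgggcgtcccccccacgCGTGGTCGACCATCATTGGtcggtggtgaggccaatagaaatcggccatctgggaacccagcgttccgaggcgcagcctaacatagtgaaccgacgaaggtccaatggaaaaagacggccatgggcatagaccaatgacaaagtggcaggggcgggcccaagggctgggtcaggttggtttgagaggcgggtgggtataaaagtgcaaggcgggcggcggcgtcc
HYOU1, chr11:119057206-119057455, minus strand: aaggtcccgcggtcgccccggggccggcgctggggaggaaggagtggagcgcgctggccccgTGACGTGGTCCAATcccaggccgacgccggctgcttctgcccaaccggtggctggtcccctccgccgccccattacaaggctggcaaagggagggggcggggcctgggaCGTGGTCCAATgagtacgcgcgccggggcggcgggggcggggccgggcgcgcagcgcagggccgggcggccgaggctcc
CRELD2, chr22:49918384-49918633, plus strand: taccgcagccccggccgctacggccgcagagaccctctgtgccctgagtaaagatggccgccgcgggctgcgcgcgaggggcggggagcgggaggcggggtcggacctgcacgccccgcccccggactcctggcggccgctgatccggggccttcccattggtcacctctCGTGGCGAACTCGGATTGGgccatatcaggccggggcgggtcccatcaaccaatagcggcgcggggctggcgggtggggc

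In PC3 cells, 48 h without arginine raised 12 of the 32 genes and lowered 0, where 9.59% of all genes rose and 10.0% fell (limma, adjusted p under 0.05). The 12 were XBP1 and ERN1, the HSP70 chaperones HSPA5 and HYOU1, the J proteins DNAJB9, DNAJC3 and DNAJC10, the degradation genes HERPUD1, SEL1L, EDEM3 and OS9, and the channel subunit SEC61A1. Of the 32, 28 had a positive difference, with a median of 0.62 against 0.02 over all genes (0.37 without the first -R array). Both starved arrays lay above both controls in 23 of 32 (31.3% of all genes did) and below both in 4 (28.6%). Fewer of the 12 were called without any 1 PC3 array: 5 remained without the first +R array, 5 without the second, 4 without the first -R array and 5 without the second, where 6 were called in all. Rises called over all genes dropped in the same settings, to 767, 815, 847 and 721 against 1697 with all arrays, while the difference of HSPA5, for example, stayed between 0.93 and 1.03. Without the DMKG experiment 13 were called, the 12 among them.

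In CWR22Rv1 cells the same 48 h raised 2 of the 32 genes, XBP1 and HERPUD1 (3.20% of all genes rose), and lowered 6, namely PDIA4, MANF, DERL3, CRELD2, DNAJB11 and DERL1 (3.74% fell). The median difference over the 32 was -0.26, against 0.02 over all genes, and 20 differences were negative. Without the +R or the -R array of the DMKG experiment this median was -0.10. At 48 h 18 genes were lower in both experiments (24.5% of all genes were) and 7 were higher in both (26.4%). Without the +R array, the -R array or the whole of the DMKG experiment 0 of the 8 were called, where over all genes 1 rise and 7 falls were called, against 566 and 662 with all arrays. The 8 were called on both experiments together, so the differences of the time course are no separate support. They were 0.83 for HERPUD1, 0.96 for XBP1, -1.53 for DERL3, -1.09 for PDIA4, -1.08 for MANF, -0.90 for DNAJB11, -0.72 for CRELD2 and -0.65 for DERL1. In the DMKG experiment the 8 were 0.67, 1.87, -1.38, -2.78, -2.06, -1.30, -1.90 and -0.93 in the same order. Between 4 and 5 were left without any 1 PC3 array. When either end of the time course (0 h or 48 h) was left out, 4 rose and 4 fell, so that falls no longer outnumbered rises, and MANF, CRELD2, PDIA4 and XBP1 were in common with the 8 above.

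No experiment held both lines, so cell line and experiment cannot be told apart in a difference between them. The PC3 response minus the CWR22Rv1 response was tested in the same model. It was positive for 30 of the 32 genes (31 after quantile normalization over all arrays), with SDF2L1 and ATF6 as the exceptions, and its median was 0.78 against 0.00 over all genes. HSPA5, HERPUD1 and DERL1 passed the test (1.97% of all genes did in this direction) and 0 passed in the other (2.43%). In 28 of the 32 the PC3 difference exceeded that of both CWR22Rv1 experiments, as it did in 35.7% of all genes. Even the smallest gap between a starved and a control PC3 array exceeded both CWR22Rv1 differences in 24 genes, against 20.8% of all genes. A positive difference in PC3 cells went with a negative one in CWR22Rv1 cells in 16 of the 32 (19.3% of all genes), and the opposite pairing occurred in 0. The 3 calls of the difference were all lost without any 1 PC3 array (without the second +R array 1 other gene was called), and without the +R or the -R array of the DMKG experiment. Over all genes the calls in this direction dropped to between 75 and 119 without 1 PC3 array, and to 55 without either of those DMKG-experiment arrays, against 349 with all arrays. The size changed little without 1 PC3 array, at 1.81 to 1.91 for HSPA5, 1.41 to 1.55 for HERPUD1 and 1.10 to 1.31 for DERL1. When either end of the time course was left out, 3 genes were called, with HSPA5 as the 1 in common.

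**Figure D1:**
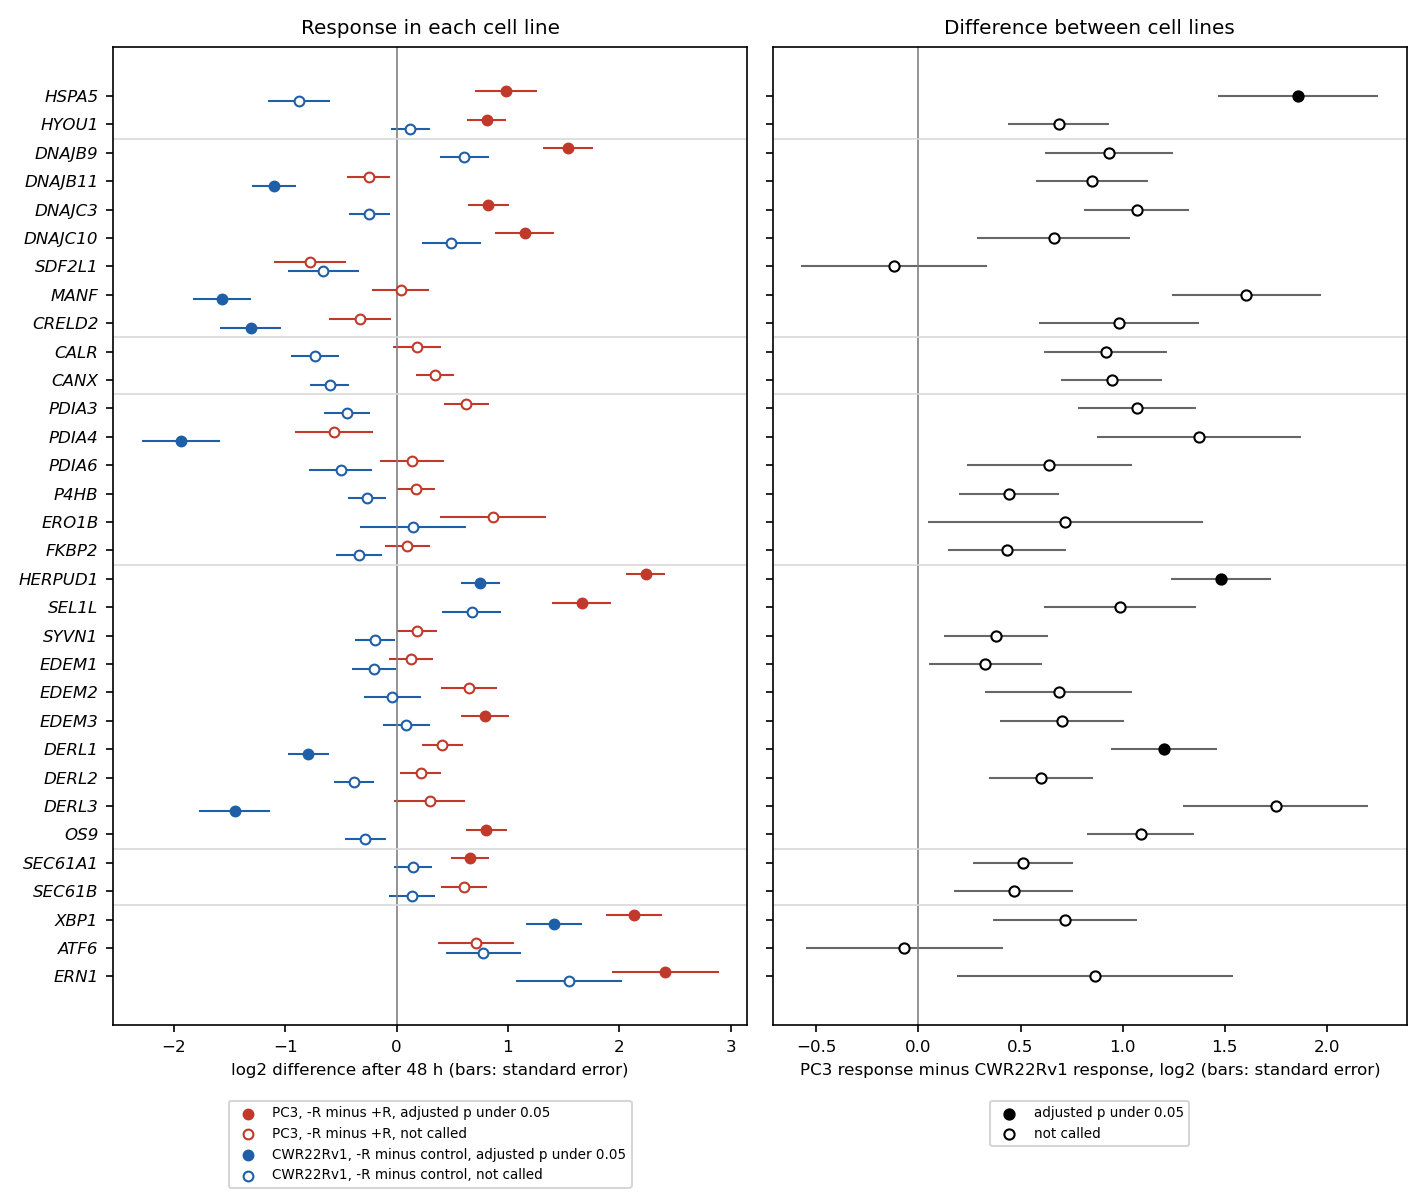
Left, the log2 difference after 48 h without arginine for each of the 32 genes, grouped by role, in PC3 cells (red, -R minus +R) and in CWR22Rv1 cells (blue, -R minus control), with the standard error from limma. Right, the PC3 response minus the CWR22Rv1 response. Filled points passed an adjusted p under 0.05; 30 of the 32 differences on the right lie above 0.

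Among the sensors and their product, XBP1 rose in both lines. XBP1, the transcription factor made active by IRE1 splicing, read 12.90 and 12.92 on the -R arrays of PC3 cells against 10.96 and 10.59 on the +R arrays. In CWR22Rv1 cells XBP1 was 11.43, 12.30 and 12.39 at 0, 24 and 48 h, and 13.48 on the -R array against 11.61 on the +R array of the DMKG experiment. No starved array overlapped a control in any of the 3 sets. The rise was 2.13 in PC3 cells (SE 0.25, limma adjusted p = 0.00106) and 1.41 in CWR22Rv1 cells (SE 0.25, adjusted p = 0.0177), and the difference between the lines, 0.72 (SE 0.35, adjusted p = 0.309), did not pass the test. One value stood for the gene, which does not separate spliced from unspliced XBP1 mRNA.

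ERN1, the kinase and nuclease IRE1 itself, was 11.12 and 10.95 in starved PC3 cells against 8.85 and 8.40 in control medium, a rise of 2.41 (SE 0.48, limma adjusted p = 0.0104). In CWR22Rv1 cells it was 9.93, 11.16 and 10.26 over the time course, highest at 24 h, and 9.99 in -R against 7.21 in +R cells of the DMKG experiment. The differences at 48 h were thus 0.32 in the time course and 2.78 in the DMKG experiment, and the joint estimate of 1.55 (SE 0.48) was not called (adjusted p = 0.101). The estimate for ERN1 is thus the mean of unlike differences. ATF6, the sensor released by cleavage, showed the same contrast between experiments. It was 11.63, 11.62 and 11.59 at 0, 24 and 48 h, yet 11.54 in -R against 9.93 in +R cells of the DMKG experiment. In PC3 cells ATF6 was 11.55 and 11.81 in -R against 10.94 and 11.00 in +R cells, a difference of 0.71 that was not called (adjusted p = 0.192).

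The response of the HSP70 chaperone BiP (HSPA5), a common marker of ER stress, differed between the lines, which were in separate experiments. HSPA5 was 16.09 and 15.99 in starved PC3 cells and 15.05 and 15.07 in control PC3 cells. In CWR22Rv1 cells HSPA5 was 14.37, 14.10 and 14.13 at 0, 24 and 48 h, and 14.04 in -R against 15.55 in +R cells of the DMKG experiment. Starved CWR22Rv1 arrays thus lay below the control of their own experiment and starved PC3 arrays above theirs. The CWR22Rv1 experiments were themselves unlike, with 48 h differences of -0.25 in the time course and -1.51 in the DMKG experiment. The rise in PC3 cells was 0.98 (SE 0.28, limma adjusted p = 0.0422), and the CWR22Rv1 difference of -0.88 (SE 0.28) was not called (adjusted p = 0.109). The difference between the responses was 1.86 (SE 0.39, adjusted p = 0.0406), the largest of the 32. Taking the time course alone as the CWR22Rv1 side, without the DMKG experiment, it was 1.23 (adjusted p = 0.0977).

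HYOU1, a large HSP70 relative that exchanges BiP's nucleotide, was 15.83 and 15.63 in starved against 14.86 and 14.97 in control PC3 cells, a rise of 0.81 (SE 0.18, limma adjusted p = 0.0152). In CWR22Rv1 cells it changed by 0.16 in the time course and 0.09 in the DMKG experiment. HYOU1 thus had small positive differences in CWR22Rv1 cells, where those of HSPA5 were negative.

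Of the 7 J proteins and BiP cofactors, DNAJB9, DNAJC3 and DNAJC10 rose in PC3 cells (9.59% of all genes rose). DNAJB11, MANF and CRELD2 fell in CWR22Rv1 cells (3.74% of all genes fell). Of the 7, 0 passed the test of the difference between the lines (1.97% of all genes were higher and 2.43% lower). DNAJB9, which also holds IRE1 in its inactive form, was 10.54 and 10.51 in starved against 8.71 and 9.26 in control PC3 cells (rise 1.54, SE 0.22, adjusted p = 0.0027). DNAJB9 was also higher without arginine in both CWR22Rv1 experiments, by 0.77 and 0.45, without being called (adjusted p = 0.16). DNAJC10, a J protein that reduces disulfides for degradation, rose by 1.15 (SE 0.26, adjusted p = 0.0192) in PC3 cells, where it was 13.75 and 13.50 in -R against 12.37 and 12.57 in +R cells. In CWR22Rv1 cells DNAJC10 differed by -0.05 in the time course and 1.03 in the DMKG experiment, without a call (adjusted p = 0.372). The J protein DNAJC3, which restrains PERK, was 12.28 and 12.01 in -R against 11.28 and 11.36 in +R PC3 cells, a rise of 0.82 (SE 0.18, adjusted p = 0.0162). The differences of DNAJC3 in CWR22Rv1 cells were -0.18 and -0.31 at 48 h, both below 0.

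MANF, a secreted cofactor that stabilises BiP with its clients, was 9.44, 8.55 and 8.36 at 0, 24 and 48 h, and 8.59 in -R against 10.65 in +R CWR22Rv1 cells of the DMKG experiment. It fell by 1.57 on the log2 scale (SE 0.26, limma adjusted p = 0.0145). In PC3 cells MANF was 10.67 and 10.53 in -R against 10.38 and 10.75 in +R cells, and the groups overlapped. The difference between the lines of 1.60 lay just outside the threshold (adjusted p = 0.0508). CRELD2, a disulfide-handling protein induced with MANF under ER stress, was 9.96, 8.87 and 9.24 over the time course, lowest at 24 h, and 9.36 in -R against 11.26 in +R cells. It fell by 1.31 (SE 0.28, adjusted p = 0.0314) on the log2 scale. DNAJB11, the J protein that brings BiP to new chains, was 10.48, 10.08 and 9.58 at 0, 24 and 48 h, and 9.13 in -R against 10.44 in +R cells, and fell by 1.10 on the log2 scale (SE 0.19, adjusted p = 0.0178). Its PC3 arrays lay between 12.48 and 12.88, with both starved arrays below both controls. SDF2L1, a partner of BiP and DNAJB11, was the 1 gene of this role with a lower starved mean in both lines and no positive difference between them, at -0.78 in PC3 and -0.66 in CWR22Rv1 cells, and passed in neither (adjusted p = 0.134 and 0.309).

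The lectin chaperones calreticulin (CALR) and calnexin (CANX) passed no test. CALR was 16.88 and 16.95 in -R against 16.76 and 16.70 in +R PC3 cells, and in CWR22Rv1 cells 16.08, 15.69 and 15.72 over the time course and 15.32 in -R against 16.43 in +R cells. The arrays thus did not overlap in either line, with starved PC3 cells above and starved CWR22Rv1 cells below their controls. CANX followed the same order, by 0.34 in PC3 and -0.60 in CWR22Rv1 cells, and its difference between the lines was 0.95 (SE 0.25, limma adjusted p = 0.0761).

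Of the 6 measured isomerases and oxidases, PDIA4 alone was called, as a fall in CWR22Rv1 cells (3.74% of all genes fell there). PDIA4, a disulfide isomerase that works in a complex with BiP, was 11.08, 9.97 and 9.98 at 0, 24 and 48 h, and 9.79 in -R against 12.57 in +R cells of the DMKG experiment. It fell by 1.94 on the log2 scale (SE 0.35, limma adjusted p = 0.0199), more than any other of the 32 in CWR22Rv1 cells. The size rested on the experiment, with -1.09 in the time course and -2.78 in the DMKG experiment. PDIA4 was 11.55 and 11.16 in -R against 11.93 and 11.91 in +R PC3 cells, without a call (adjusted p = 0.324). PDIA3, the isomerase that calnexin recruits to glycoproteins, was 15.31 and 15.12 in -R against 14.49 and 14.69 in +R PC3 cells and came closest to a rise (difference 0.63, adjusted p = 0.0691). P4HB, the principal isomerase, PDIA6 and the prolyl isomerase FKBP2 differed by 0.18, 0.14 and 0.10 in PC3 cells and by -0.27, -0.50 and -0.34 in CWR22Rv1 cells. The oxidase ERO1B, which recharges the isomerases, went opposite ways in the CWR22Rv1 experiments, by 1.29 at 48 h of the time course and -0.99 in the DMKG experiment.

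Of the 10 degradation genes 4 rose in PC3 cells (9.59% of all genes rose). In CWR22Rv1 cells 1 rose (3.20% of all genes) and 2 fell (3.74%). HERPUD1, a membrane protein that assembles the degradation complex, was 12.93 and 12.80 in starved against 10.65 and 10.60 in control PC3 cells. In CWR22Rv1 cells HERPUD1 was 13.70, 13.98 and 14.54 at 0, 24 and 48 h, and 13.71 in -R against 13.03 in +R cells. The starved arrays were above their controls in every set, and the rise was 2.24 in PC3 (SE 0.17, limma adjusted p = 0.000156, the lowest of the 32) and 0.75 in CWR22Rv1 cells (SE 0.17, adjusted p = 0.0401). PC3 cells rose by 1.48 more (SE 0.24, adjusted p = 0.0182). SEL1L, the scaffold of the ubiquitin ligase SYVN1, was 13.43 and 13.42 in -R against 11.72 and 11.81 in +R PC3 cells, a rise of 1.66 (SE 0.26, adjusted p = 0.00409). In CWR22Rv1 cells SEL1L was higher by 0.10 in the time course and 1.26 in the DMKG experiment, without a call (adjusted p = 0.192). SYVN1 itself changed by 0.19 in PC3 and -0.19 in CWR22Rv1 cells, so that scaffold and ligase did not share a call.

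OS9, a lectin that hands misfolded glycoproteins to SEL1L, was 13.46 and 13.36 in -R against 12.45 and 12.75 in +R PC3 cells and rose by 0.80 (SE 0.18, limma adjusted p = 0.0187). Among the mannosidase-like EDEM proteins that mark chains for disposal, EDEM3 rose by 0.79 (SE 0.21, adjusted p = 0.0365), with 11.73 and 11.33 in -R against 10.69 and 10.79 in +R cells. EDEM2 and EDEM1 differed by 0.65 (adjusted p = 0.116) and 0.13 (adjusted p = 0.717) in PC3 cells. None of the 3 passed in CWR22Rv1 cells, where EDEM1 read 7.62 on all arrays of the DMKG experiment.

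The derlins, membrane proteins of the exit channel, included 2 that fell in starved CWR22Rv1 cells (3.74% of all genes fell). DERL1 was 11.09, 10.24 and 10.44 at 0, 24 and 48 h, and 10.73 in -R against 11.66 in +R cells, and fell by 0.79 on the log2 scale (SE 0.18, limma adjusted p = 0.0416). In PC3 cells DERL1 was 14.16 and 14.03 in -R against 13.78 and 13.58 in +R cells, and the responses differed by 1.20 (SE 0.26, adjusted p = 0.0423), just inside the threshold. DERL3, known from secretory tissues, was 11.46, 11.09 and 9.93 over the time course and 10.38 in -R against 11.75 in +R CWR22Rv1 cells, and fell by 1.45 on the log2 scale (SE 0.32, adjusted p = 0.0357). On the PC3 arrays DERL3 read between 3.98 and 5.07, close to the medians of the negative controls of all arrays (3.30 to 4.04), where no further fall could have been seen. DERL2 differed by 0.21 in PC3 and -0.39 in CWR22Rv1 cells, with neither called.

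Of the channel through which chains enter the ER, SEC61A1, the pore, was 12.51 and 12.40 in -R against 11.74 and 11.85 in +R PC3 cells, a rise of 0.66 (SE 0.17, limma adjusted p = 0.0321). SEC61B, a small subunit of the same channel, differed by 0.61 (adjusted p = 0.0773) in PC3 cells. In CWR22Rv1 cells the estimates were 0.15 and 0.14, and SEC61B was identical on the 3 arrays of the DMKG experiment.

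**Figure D2:**
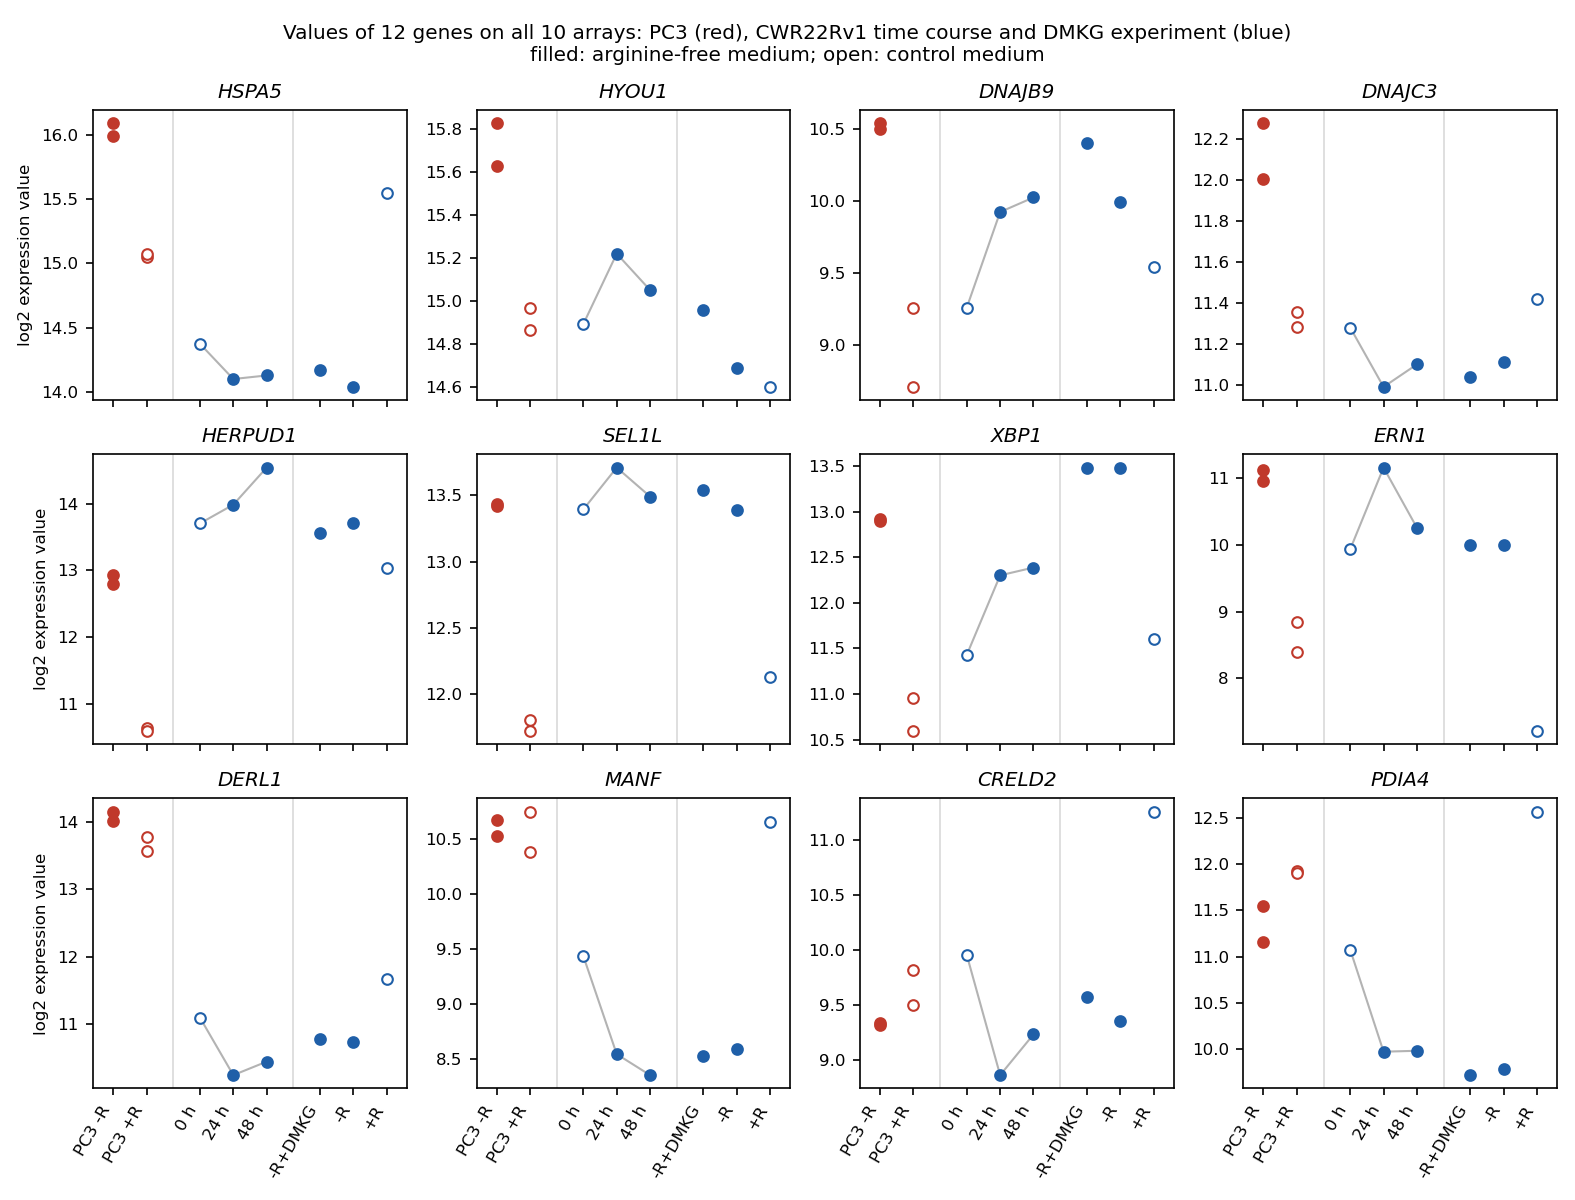
Log2 expression values (vertical axis, its own range in each panel) of 12 genes on each of the 10 arrays. PC3 cells are in red and CWR22Rv1 cells in blue, with the time course joined by a line and the DMKG experiment to its right; filled points are arrays of arginine-free medium and open points of control medium. HERPUD1 and XBP1 have filled points above open ones in all 3 sets, while MANF, CRELD2 and PDIA4 fall in both CWR22Rv1 experiments.

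Over the CWR22Rv1 time course 0 of the 32 genes were called at 24 h (0% of all genes were), and at an unadjusted p under 0.05 the fit held 2 higher (XBP1 and ERN1, 6.30% of all genes) and 4 lower (MANF, CRELD2, PDIA4 and DERL1, 5.96%). With limma's trend and robust options 91 genes were called at 24 h, of which 0 were among the 32. The differences from 0 h at 24 and 48 h share their control array. Side by side, PDIA4 was -1.10 and -1.09, MANF -0.89 and -1.08, and XBP1 0.87 and 0.96, so these 3 stood near their 48 h level by 24 h. DERL3, by contrast, was -0.36 at 24 h and -1.53 at 48 h, and ERN1 1.22 and 0.32. Between the 2 starved arrays the 32 genes differed by 0.23 on average in absolute size, against 0.33 over all genes.

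The DMKG experiment gave larger differences than the time course for these genes. Their mean absolute difference at 48 h was 0.94 in the DMKG experiment and 0.45 in the time course, where all genes had 0.34 and 0.41, and for 22 of the 32 the -R minus control difference was lower in the DMKG experiment (51.1% of all genes). Of the 32, 11 (34.4%) reached an unadjusted p under 0.05 in the difference between the experiments, against 8.9% of all genes, and 0 passed after adjustment (lowest 0.27, for ERN1). The control arrays differed: after quantile normalization over all arrays HSPA5 was 15.60 in the DMKG experiment after 48 h in control medium and 14.54 in the time course after 24 h in it. PDIA4 was 12.83 and 11.35 on the same arrays, MANF 10.99 and 9.68, and ERN1 7.64 and 10.21. Time in medium and experiment cannot be told apart in these arrays.

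With DMKG in arginine-free medium the values stayed close to those without it. HSPA5 was 14.17 in -R+DMKG, 14.04 in -R and 15.55 in +R cells, PDIA4 was 9.72, 9.79 and 12.57, and XBP1 was 13.48, 13.48 and 11.61 in the same order. The -R+DMKG minus -R difference of the 32 genes ran from -0.42 (SDF2L1) to 0.65 (SYVN1), and was under 0.5 in size in 31. Its mean absolute size was 0.14 against 0.16 over all genes. Identical values on these arrays, in 4 of the 32 and 26.3% of all genes, enter both means as 0. In limma 0 genes of the 32 were called (0% of all genes were, also with the trend and robust options), and at an unadjusted p under 0.05 SYVN1 was higher (0.922% of all genes were) and 0 were lower (1.11%). With 1 array a side, a change of the size of SYVN1's, 12.40 in -R+DMKG against 11.75 in -R cells, could not be told from the spread between arrays.

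**Figure D3:**
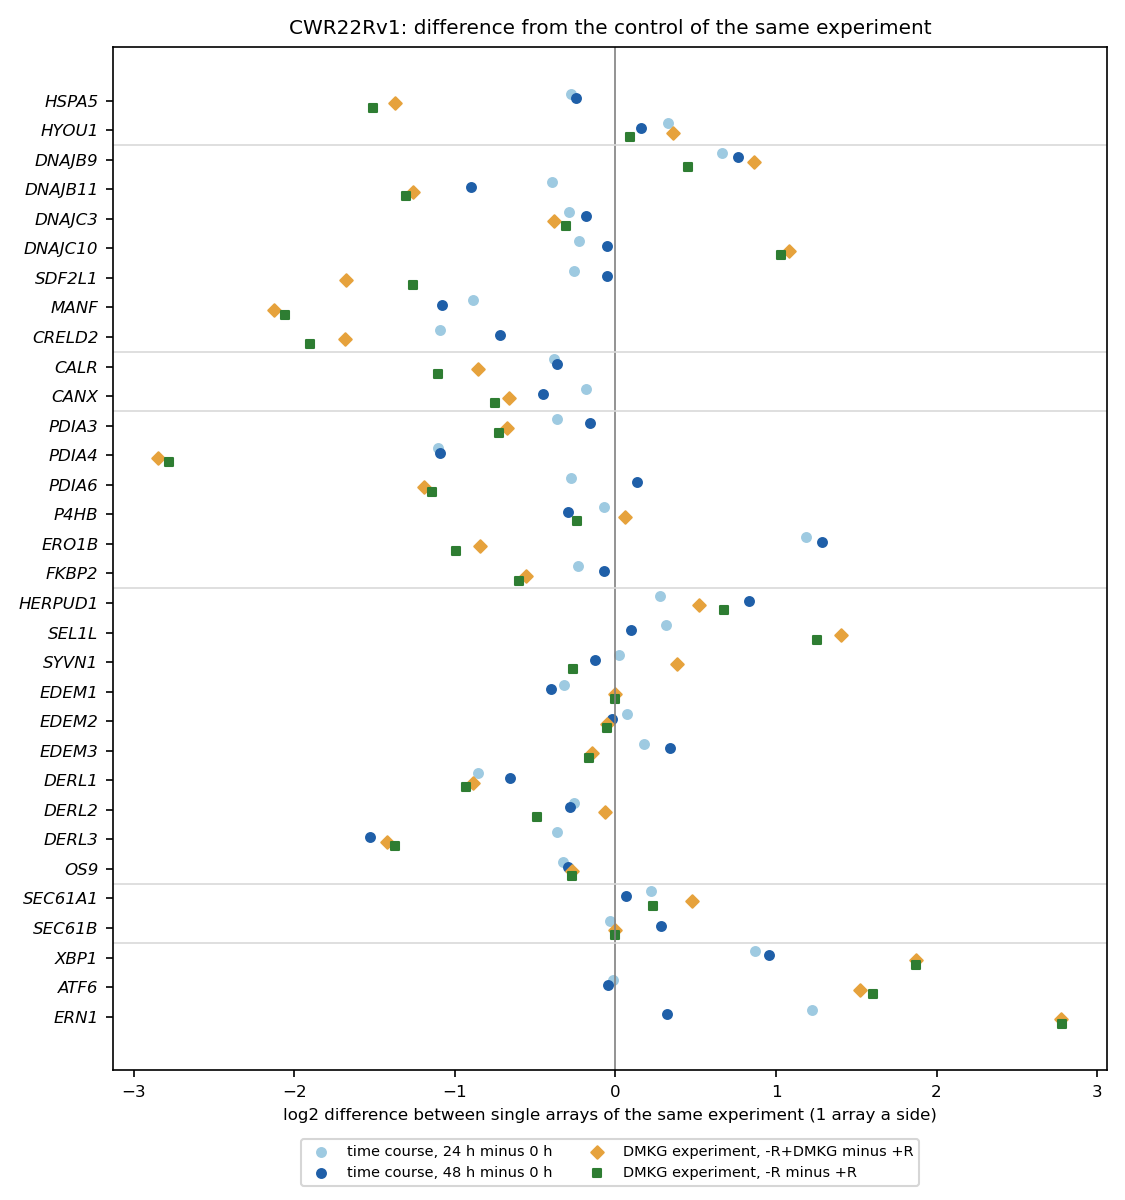
Log2 difference of single CWR22Rv1 arrays from the control of their own experiment (horizontal axis) for the 32 genes: 24 h (light blue) and 48 h (dark blue) of the time course, and -R+DMKG (orange) and -R (green) of the DMKG experiment. Orange and green points lie together, and PDIA4, MANF and CRELD2 lie further left in the DMKG experiment than in the time course.

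Levels in control medium were compared between the lines only after quantile normalization over all 10 arrays, since PC3 and CWR22Rv1 arrays had different distributions, and only within a gene. In control medium both PC3 arrays were above both CWR22Rv1 arrays in 7 of the 32 genes (33.4% of all genes) and below both in 14 (34%). DERL3 was 3.85 and 4.78 in PC3 and 11.73 and 12.05 in CWR22Rv1 cells, the largest gap. HERPUD1 was 10.17 and 10.12 in PC3 and 13.93 and 13.29 in CWR22Rv1 cells. The gene with the lowest p for a rise in PC3 cells thus had a lower level there in control medium. SEL1L and XBP1 were lower in control PC3 cells as well, by 1.71 and 1.49 on the log2 scale, whereas EDEM1, SEC61B, DERL1, ERO1B and DNAJB11 were higher by 1.99, 1.87, 1.70, 1.61 and 1.58. HSPA5 overlapped between the lines, at 14.80 and 14.91 in PC3 and 14.54 and 15.60 in CWR22Rv1 cells.

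Other genes of the secretory pathway were counted in 8 lists with no gene in common with the 34. In PC3 cells 7 of 16 genes of unfolded protein response signalling rose and 0 fell, and in CWR22Rv1 cells 1 rose and 0 fell. PPP1R15A, the phosphatase subunit that restarts translation, was 11.13 and 11.13 in -R against 8.27 and 8.29 in +R PC3 cells (rise 2.85, limma adjusted p = 5.6e-05) and rose by 1.44 in CWR22Rv1 cells (adjusted p = 0.00588). NFE2L2, the antioxidant transcription factor and a PERK substrate, rose by 1.38 in PC3 cells (adjusted p = 0.00164). For translocation and signal peptidase the counts were 6 of 21 up and 0 down in PC3 cells and 1 up and 1 down in CWR22Rv1 cells. SEC11C, a catalytic subunit of signal peptidase, was 10.91 and 11.10 in -R against 9.47 and 9.55 in +R PC3 cells and differed in response between the lines by 1.91 (SE 0.25, adjusted p = 0.00803), and SRPRB, a subunit of the signal recognition particle receptor, by 1.50 (adjusted p = 0.0256).

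Of 26 other genes of oxidative folding, 8 rose and 3 fell in PC3 cells, and 1 rose and 2 fell in CWR22Rv1 cells. SELENOS, a selenoprotein of the degradation complex, rose by 0.81 in PC3 cells (adjusted p = 0.0145), and FKBP9, a prolyl isomerase, fell by 1.07 on the log2 scale in CWR22Rv1 cells (adjusted p = 0.0127). Among 30 genes of N-glycan processing 7 rose and 0 fell in PC3 cells and 0 rose and 2 fell in CWR22Rv1 cells, with KRTCAP2, an oligosaccharyltransferase subunit, up by 0.69 (adjusted p = 0.0243) in PC3 cells and DPAGT1, which starts the glycan, down in CWR22Rv1 cells (-0.91, adjusted p = 0.0258). The remaining degradation machinery was mixed, with 4 of 30 up and 2 down in PC3 cells. These counts were near the shares over all genes (9.59% up and 10.0% down in PC3 cells). In CWR22Rv1 cells 1 was up (UFD1, which helps to extract substrates, 0.81) and 2 were down (UBXN8 among them, -1.84). COPII export and cargo receptors, with 3 of 24 up and 3 down in PC3 cells, were also near those shares. In CWR22Rv1 cells 0 were up and 2 down, namely SURF4 (-0.90) and TMED2 (-1.25), both cargo receptors of early transport. In reticulophagy, the disposal of ER by autophagy, 3 of 10 rose in PC3 and 2 in CWR22Rv1 cells. UFM1, a small modifier used in it, rose by 2.29 in PC3 (adjusted p = 0.000196) and 1.13 in CWR22Rv1 cells (adjusted p = 0.0145), and the receptor RETREG3 differed by -0.00 and -0.71. Of 19 heat shock proteins of the cytosol 1 rose and 5 fell in PC3 cells, with 9 positive and 10 negative differences and a median of -0.12, and 2 rose and 2 fell in CWR22Rv1 cells. HSPA2 and HSPA4L fell by 1.45 and 1.23 on the log2 scale in PC3 cells (adjusted p = 0.00248 and 0.0114). The PC3 minus CWR22Rv1 response was positive in 28 of 30 N-glycan, 21 of 26 oxidative folding and 15 of 21 translocation genes. The counts were 10 of 16 for signalling, 19 of 30 for degradation, 7 of 10 for reticulophagy and 16 of 24 for COPII genes. Cytosolic heat shock proteins had 8 of 19, where 50% of all genes were positive. In this direction 4 oxidative folding and 4 translocation genes passed the test, where 1.97% of all genes did. Each other list had 0 or 1.

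**Figure D4:**
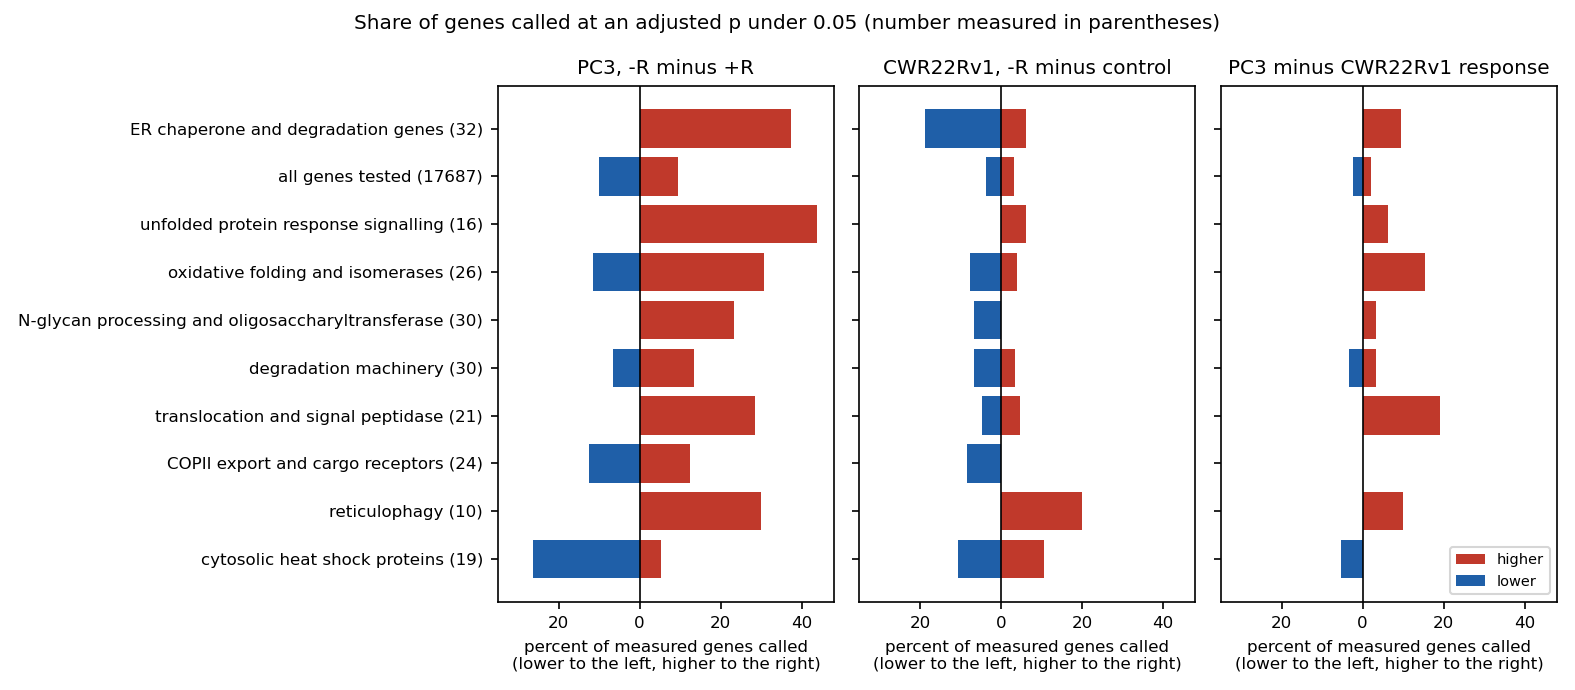
Percent of the measured genes of each list called higher (red, right of 0) or lower (blue, left of 0) at an adjusted p under 0.05 in PC3 cells, in CWR22Rv1 cells and in the PC3 minus CWR22Rv1 response, with the number measured in parentheses. The 32 ER chaperone and degradation genes have 12 rises in PC3 cells and 6 falls in CWR22Rv1 cells, and all 17687 genes are shown beneath them.

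The measured genes with and without the response elements were set side by side. Of the 11 with an ERSE, ERSE-II or TGACGTGG match, 5 rose in PC3 cells (HSPA5, HYOU1, DNAJC10, HERPUD1 and XBP1) and 2 rose and 1 fell in CWR22Rv1 cells. Of the 18 that the promoter table lists without such a match, 7 rose in PC3 cells and 0 rose and 3 fell in CWR22Rv1 cells. Over all genes 9.59% rose in PC3 cells, and 3.20% rose and 3.74% fell in CWR22Rv1 cells. The median PC3 difference was 0.81 with a match and 0.63 without, and the median CWR22Rv1 difference was -0.50 and -0.20. Over all genes the median was 0.02 in each line. The 7 measured ERSE genes held HSPA5 and XBP1, which rose in PC3 cells, beside CRELD2, CALR, CANX, PDIA6 and ERO1B, which did not pass there. Genes with a match were thus called higher, called lower and not called.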

How the data were processed

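RNA of 10 samples was hybridised to 10 Clariom S arrays. The authors summarised the arrays with the Transcriptome Analysis Console and deposited log2 values; which version, background correction and normalization they used is not stated in the labels or the methods. Of 24351 probe sets, 17709 carried a single gene symbol. Where several shared a symbol (20 genes), the one with the highest mean stood for the gene, leaving 17687 genes.

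limma 3.58.1 under R 4.3.3 was fitted to all 10 arrays with 3 intercepts (time course, DMKG experiment, PC3 cells) and the effects of 24 h, 48 h in CWR22Rv1 cells (shared by both experiments), DMKG, and 48 h in PC3 cells. This left 3 residual degrees of freedom, with a prior of 5.09 added by the empirical Bayes step. P-values were adjusted by Benjamini-Hochberg over all genes in each of 5 comparisons. The fitted effects of 24 h and DMKG also take in part of the difference between experiments at 48 h. The number of arrays limits the precision. Figures were drawn with matplotlib 3.10.9.

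The 34 genes, their roles and the 8 other lists were chosen with earlier results of these data known. All 34 are named, and from each other list at most the 2 genes with the smallest p for the PC3 minus CWR22Rv1 response. Promoters are from RefSeq (GRCh38.p14). Printed promoters are of genes with a match, 1 start in the table and the smallest p in that contrast.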

Additional observations from a re-analysis of the deposited data

Results flagged for a closer look

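For 3 of the 32 genes the response to 48 h without arginine differed between the cell lines in a test of the difference itself. Cell line and experiment cannot be told apart in that test. The PC3 minus CWR22Rv1 response was 1.86 for HSPA5 (limma adjusted p = 0.0406), 1.48 for HERPUD1 (adjusted p = 0.0182) and 1.20 for DERL1 (adjusted p = 0.0423). HSPA5 differed by 0.98 in PC3 and -0.88 in CWR22Rv1 cells, HERPUD1 by 2.24 and 0.75, and DERL1 by 0.41 and -0.79. Without the DMKG experiment the 3 differences were 1.23, 1.40 and 1.07 in the same order, and none was called (adjusted p = 0.0977, 0.0792 and 0.141). The groups held 1 or 2 arrays, so no array could be set apart within a group.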

How the results depend on the processing

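Counts of the 32 genes called depended on the setting as follows, with the main counts at 12 for PC3 cells, 8 for CWR22Rv1 cells and 3 for the difference between them. Without a term for the experiment they were 3, 0 and 0. Each line fitted on its own gave 0 in CWR22Rv1 cells, as over all genes, where 0 rose and 0 fell. A separate 48 h effect for the time course gave 0 in CWR22Rv1 cells (over all genes 1 rose and 7 fell) and 0 for the difference (55 higher and 69 lower over all genes), while that for the DMKG experiment gave 8 and 3. Without the DMKG experiment, chosen after seeing the data, both were 0 again. With the lowest 30% of genes left out the difference had 7 calls, and with limma's trend and robust options 11. The methods' t-test after Benjamini-Hochberg adjustment gave 0 in PC3 and 2 in CWR22Rv1 cells, and unadjusted 14 in PC3 and 13 in CWR22Rv1 cells. With the replicate block in PC3 cells the counts were 9, 5 and 1. The replicate numbers did not pair the samples (correlation of the deviations -0.03 across genes), and each group holds 2 arrays. Leaving out 1 array at a time gave 4 to 13 calls in PC3 cells, 0 to 8 in CWR22Rv1 cells and 0 to 3 for the difference. A lone array left in a group was assumed to vary like the others. The 24 h and DMKG counts were 0 in every setting run. None of 531 values of single called genes changed sign, and 176 lost the call. Many of the 531 could not change sign, because the setting altered the error and left the estimate as it was. HSPA5 in PC3 cells, for example, stayed at 0.98 without the 0 h array of the time course. Likewise PDIA4 in CWR22Rv1 cells stayed at -1.94 without the first +R array of PC3 cells. The causes of the changes in counts were not tested.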
